A study of Mus musculus with 7 samples.

Results

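The 7 genes of the beta-1,4-galactosyltransferase family, B4galt1 to B4galt7, were followed in bulk RNA-seq of mouse long-term haematopoietic stem cells (LT-HSCs), which sit in the marrow and can regenerate every kind of blood cell. The members are the whole family by name, and no measured value set which genes belong. The family was chosen with earlier results of these data known. All 7 members are among the 34932 genes that the data cover. The study has 7 libraries of bone marrow cells, all from mice of mixed 129S1/C57Bl/6 background, sorted as lineage-negative, Sca-1+, c-Kit+, CD150+ and CD48-. Of these, 4 are labelled KO, with the genotype B4-/- for B4galt1, which the series describes as a full knockout, and 3 are labelled WT, with no allele named. No treatment is given. Age, sex and the design of the knockout allele are not in the labels, which also do not say whether replicates are separate animals, so p-values measure the spread between these libraries, which may be partly technical. The comparison asks which paralogues LT-HSCs express, and whether any paralogue is higher where B4galt1 is labelled as knocked out.

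Enzymes of this family take galactose from the activated sugar UDP-galactose, in the Golgi, and attach it by a beta-1,4 linkage to a growing sugar chain, with manganese as cofactor. B4galt1 is the principal enzyme that puts galactose on the antennae of N-glycans, and in the mammary gland it pairs with alpha-lactalbumin to make lactose. B4galt2, B4galt3 and B4galt4 also act on N-acetylglucosamine at chain ends. B4galt5 and B4galt6 make lactosylceramide, the precursor of most gangliosides, and B4galt7 adds galactose to xylose in the linker that carries glycosaminoglycan chains on proteoglycans.

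The members share a short acidic motif of the catalytic domain. The stretch of coding sequence that encodes it is shown because all 7 members carry it, and because similar sequence can exchange reads between paralogues. The 24 capital letters mark the motif codons, and 9 bases stand on either side in lower case. The sequences are written 5′ to 3′ as RNA would read them, in DNA letters, from the GENCODE M21 transcripts of GRCm38.

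B4galt1: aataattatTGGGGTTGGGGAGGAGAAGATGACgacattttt
B4galt2: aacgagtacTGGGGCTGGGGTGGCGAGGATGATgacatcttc
B4galt3: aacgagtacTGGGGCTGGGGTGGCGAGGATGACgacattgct
B4galt4: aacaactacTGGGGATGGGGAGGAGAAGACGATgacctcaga
B4galt5: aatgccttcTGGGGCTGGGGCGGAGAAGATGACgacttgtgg
B4galt7: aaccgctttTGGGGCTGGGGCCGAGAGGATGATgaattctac

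Of the 24 motif bases, B4galt5 has 22 identical to B4galt1, B4galt4 has 21, B4galt3 has 20, and B4galt2, B4galt6 and B4galt7 have 19 each. Over whole coding sequences the likeness was lower. B4galt1 matched B4galt2 at 65.0% of aligned bases, B4galt4 at 64.5%, B4galt3 at 63.4%, B4galt5 at 59.7%, B4galt6 at 57.9% and B4galt7 at 57.7%. The closest pair was B4galt5 with B4galt6, at 70.1%. At the length that a read aligner needs, the paralogues were nearly separate. Of the 4203 windows of 31 bases in B4galt1 transcripts, 0 occur in any other annotated gene, and 0 of 3288 in B4galt4. Only 5 windows are shared within the family, between B4galt2 and B4galt3. Reads of B4galt1 could therefore not pass to a paralogue by identical windows of that length.

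Promoters of 6 members were found in a RefSeq table of GRCm38.p6 that gives 250 bases before and 50 after each gene's start. Those of B4galt1 and B4galt2 are shown because these members, close in coding sequence, stood far apart in RNA level. The B4galt1 promoter lies at chr4:40853935-40854234 and the B4galt2 promoter at chr4:117883427-117883726, both on the minus strand. Capitals mark GGGCGG, the core of a GC box, searched on both strands.

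B4galt1 promoter: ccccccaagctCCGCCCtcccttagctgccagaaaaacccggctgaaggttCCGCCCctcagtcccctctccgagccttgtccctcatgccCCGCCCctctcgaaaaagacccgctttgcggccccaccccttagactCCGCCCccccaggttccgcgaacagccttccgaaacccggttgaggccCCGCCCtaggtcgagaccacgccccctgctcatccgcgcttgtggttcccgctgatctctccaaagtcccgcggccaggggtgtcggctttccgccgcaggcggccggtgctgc
B4galt2 promoter: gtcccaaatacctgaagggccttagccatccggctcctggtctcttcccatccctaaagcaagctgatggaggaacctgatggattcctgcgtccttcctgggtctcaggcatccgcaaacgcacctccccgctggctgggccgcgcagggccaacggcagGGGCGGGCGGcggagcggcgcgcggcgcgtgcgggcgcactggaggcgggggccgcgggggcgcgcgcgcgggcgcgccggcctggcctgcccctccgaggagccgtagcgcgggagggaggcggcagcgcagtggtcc

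The motif occurs in 35.7% of the 32851 promoters in the table. It was found 5 times for B4galt1, and 2.71% of promoters hold as many. B4galt2 has 2 matches, which overlap, B4galt3 has 2, B4galt4 has 1, B4galt5 has 7 and B4galt7 has 0. The number of CpG pairs was 26 for B4galt1, 36 for B4galt2, 19 for B4galt3, 27 for B4galt4, 31 for B4galt5 and 8 for B4galt7, against a median of 7 over all promoters in the table. These matches describe the letters in the window and show no binding.

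Library totals ran from 23508985 to 34941390 estimated reads. The sorted cells carried the HSC markers: all 14 genes of that list were detected, and Slamf1, which encodes CD150, was between 67.8 and 128.4 CPM (reads scaled to a common library total, with edgeR's TMM factors). KO replicate 4 and WT replicate 3 had Y-linked genes at 11.6 and 5.92 CPM in sum, where the other 5 libraries had 232.4 to 381.7 CPM. Cd48, the gene of the marker that the sort selected against, differed between the groups. It was at 105.3, 126.0, 141.8 and 129.7 CPM in the libraries labelled KO and at 25.2, 14.01 and 32.3 CPM in WT, with a log2 difference of 2.40 (SE 0.27, edgeR adjusted p = 0.000804). The summed level of 15 megakaryocyte and platelet genes was 1086 to 1988 CPM under the KO label and 5688 to 12533 CPM under the WT label, and 13 of the 15 were lower by the same test. Over all 14695 genes tested, edgeR called 0.599% higher and 1.66% lower. DESeq2 called 352 of them higher and 514 lower, and limma voom 269 and 439. Of other lists, edgeR called 1 of 14 HSC genes lower (Vwf, at -1.76), and DESeq2 and limma voom called 3 each. Of 8 tested erythroid genes edgeR and DESeq2 called 0 and limma voom 2. At an unadjusted edgeR p below 0.05 there were 4, of which 2 were higher and 2 lower. The median log2 difference of the 8 was 0.24, with 5 above and 3 below 0, so the list had no common direction. Hba-a1, an alpha-globin gene named after its values were seen, was at 0 to 10.7 CPM under the KO label and 46.4 to 127.9 CPM under the WT label. It ran against the list median and does not stand for the list. Sequence that it shares with other genes, such as Hba-a2, was not examined. The erythroid sum was 152.3 to 277.7 CPM against 185.4 to 296.3 CPM. Granulocyte and monocyte genes summed to 546.0 to 655.2 CPM against 678.6 to 831.5 CPM, with 1 of 9 higher and 1 lower by edgeR, 5 called by DESeq2 and 4 by limma voom. The median log2 difference of the 9 was 0.56, with 5 above and 4 below 0. At an unadjusted edgeR p below 0.05, 4 were higher and 3 lower. Ly6g was at 0 in all libraries, whereas Lyz2 was at 462.1 to 574.1 CPM against 650.9 to 796.1 CPM. Lyz2 made up most of the granulocyte and monocyte sum, so that sum does not stand for the other members. Lymphoid genes summed to 216.6 to 401.7 CPM against 188.5 to 262.0 CPM, mostly Nkg7, which ran from 119.4 to 334.8 CPM, and Cd3e was at most 0.195 CPM. Of 4 tested lymphoid genes edgeR and DESeq2 called 0 and limma voom 1, with 2 at an unadjusted p below 0.05. Stromal and endothelial genes summed to 69.6 to 89.8 CPM against 77.8 to 106.1 CPM. Of 5 tested, edgeR called 1 higher and 0 lower, and DESeq2 and limma voom called 2 each. The median log2 difference of the 5 was -0.16, with 1 above and 4 below 0. At an unadjusted edgeR p below 0.05, 1 was higher and 1 lower. Fewer cells of a type and less RNA per cell cannot be told apart in bulk RNA, and the part of these differences in the values of the family was not tested.

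LT-HSCs expressed 6 of the 7 paralogues above the filter on low counts, and B4galt2 was close to the detection limit. Levels of different genes are compared in TPM, the deposited unit that corrects for transcript length and sums to the same total in each library. Over the 7 libraries B4galt4 had the highest mean, 17.1 TPM, followed by B4galt3 at 11.2, B4galt7 at 5.87, B4galt1 at 5.03, B4galt5 at 2.32, B4galt6 at 2.11 and B4galt2 at 0.168 TPM. B4galt1, the member named for the knockout, was thus the fourth of the family by mean TPM over both groups. Its place depended on group and scale. Under the WT label its mean was 4.52 TPM, above B4galt7 at 3.68 TPM. Under the KO label its mean was 5.42 TPM, below B4galt7 at 7.52 TPM. In CPM per kilobase of the longest transcript, its mean share of the family under the WT label was 15.02%, above B4galt3 and B4galt7. Under the KO label that share was 13.2%, below B4galt3 and B4galt7. Among protein-coding genes ranked by mean TPM, B4galt4 stood at percentile 75.5, B4galt3 at 70.1, B4galt7 at 62.1, B4galt1 at 60.3, B4galt5 at 53.2, B4galt6 at 52.5 and B4galt2 at 36.8.

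Only the lowest place in this order was the same in every library. B4galt4 was above B4galt3 in 6 of 7 libraries, the exception being KO replicate 4, and B4galt3 was above B4galt7 in 7 of 7. B4galt7 exceeded B4galt1 in only 4 of 7 libraries, and B4galt5 exceeded B4galt6 in 4 of 7, so neither pair is ordered beyond the spread of the libraries. B4galt1 was above B4galt5 in 7 of 7. The ranges of all neighbours in this order overlapped except those of B4galt6 and B4galt2, and B4galt2 was the lowest member in all 7 libraries.

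**Figure D1:**
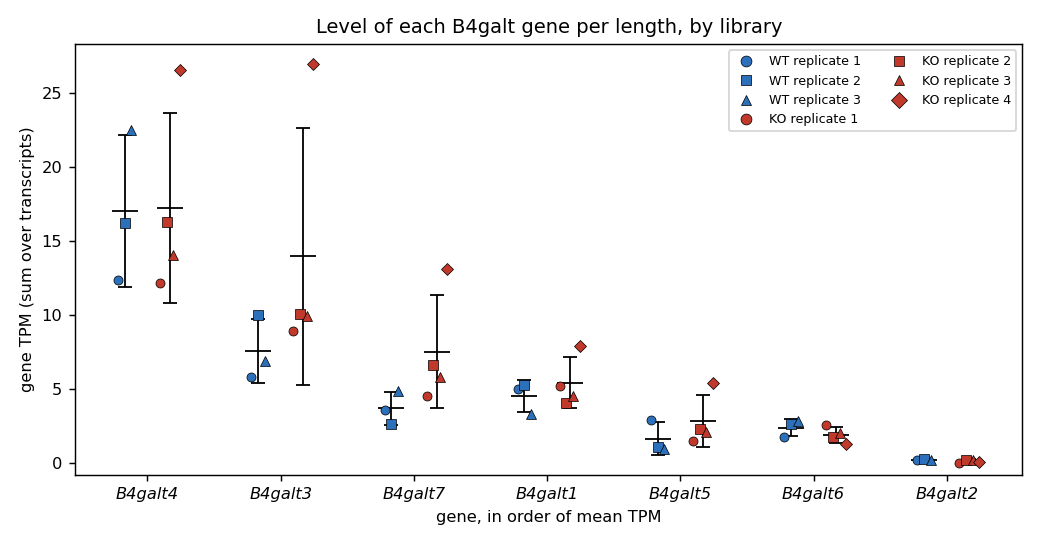
Level of each paralogue in TPM, with 1 point per library, libraries labelled KO and WT in separate colours, and a bar at the group mean. B4galt4 and B4galt3 lie highest, at means of 17.1 and 11.2 TPM, and B4galt2 lies lowest in every library. KO replicate 1 has B4galt2 at 0 TPM.

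B4galt1 RNA was present in every library, including all 4 labelled KO. Taking replicates in order, the libraries labelled KO had 19.3, 14.9, 14.8 and 14.6 CPM, and those labelled WT had 19.2, 24.4 and 11.3 CPM. The groups overlapped, and the lowest library of all was WT replicate 3. The mean ± SD was 15.9 ± 2.28 CPM (n = 4) under the KO label and 18.3 ± 6.62 CPM (n = 3) under the WT label, a log2 difference of -0.20 (SE 0.27, 95% interval -0.80 to 0.40, edgeR adjusted p = 0.758). Without WT replicate 2 the log2 difference was 0.037 (edgeR adjusted p = 0.974), so the sign rested on that library. B4galt1 does not check the genotype here, so every direction below rests on the labels alone.

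B4galt1 (ENSMUSG00000028413, GRCm38 chromosome 4, 40804602 to 40854005, minus strand) has 2 quantified transcripts. The long one, ENSMUST00000030121, has 6 exons, 3983 bases and a coding sequence of 1197 bases. The short one, ENSMUST00000108096, shares its first 4 exons and then ends in an exon of its own, at 40809154 to 40809404, inside the intron between exons 4 and 5 of the long transcript, with a coding sequence of 1038 bases. Since both transcripts hold the first 4 exons, the values per transcript cannot show whether 1 of these exons is missing from the RNA of the libraries labelled KO.

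In 6 of the 7 libraries nearly all B4galt1 reads were assigned to the long transcript. It had 495, 404, 394 and 406 estimated reads under the KO label and 564, 521 and 254 under the WT label, a log2 difference of -0.38 (SE 0.34, 95% interval -1.17 to 0.40, edgeR adjusted p = 0.689). The short transcript had 0, 0, 12 and 134 reads under the KO label, and 0, 0 and 7 under the WT label. In KO replicate 4 it took 24.9% of the 539 reads of the gene (95% Wilson interval 21.4% to 28.7%), against 2.96% of 405 (1.70% to 5.11%) in KO replicate 3 and 2.68% of 261 (1.31% to 5.43%) in WT replicate 3. In the other 4 libraries the share was 0. The Wilson interval then reaches 0.770% and 0.942% in KO replicates 1 and 2, and 0.6765% and 0.732% in WT replicates 1 and 2, and the limit of 3 reads that a count of 0 allows is 0.606%, 0.743%, 0.532% and 0.576%. These intervals cover counting error only. A raised share of the short transcript was therefore seen in a single library and not across those labelled KO.

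B4galt2, which encodes the closest relative of B4galt1 in coding sequence, was barely detected. Its estimated reads were 0, 9, 10 and 3 under the KO label and 11, 12 and 8 under the WT label, 53 in all. In CPM these are 0, 0.333, 0.366 and 0.0810 against 0.374, 0.562 and 0.345, where 3 reads correspond to 0.0810 to 0.141 CPM depending on the library. The groups overlapped, since KO replicate 3 lay above WT replicate 3. Fitted without the filter, the log2 difference was -1.12 (SE 1.03, edgeR adjusted p = 0.643), so no difference was detectable at this depth. B4galt2 exons overlap 3028 bases of Slc6a9 on the opposite strand and 1582 of Ccdc24 on its own strand, the kit does not mark strand, and 26.7% of its 31-base windows occur in other genes, so even this low level is an uncertain one.

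B4galt3, an N-glycan galactosyltransferase, had the second highest mean TPM of the family over the 7 libraries. It was at 12.6, 14.3, 13.5 and 33.2 CPM under the KO label and at 10.9, 15.5 and 9.96 CPM under the WT label. KO replicate 4 stood alone at the top, and the other 3 libraries labelled KO lay inside the WT range. The log2 difference was 0.61 (SE 0.36, 95% interval -0.20 to 1.41, edgeR adjusted p = 0.480), and without KO replicate 4 it was 0.16 (adjusted p = 0.838). Over the 5 libraries with Y-linked expression it was 0.05. B4galt3 exons overlap 791 bases of Ppox on the opposite strand, which had 307 to 1314 reads, so the reads of the 3′ end cannot be assigned by strand.

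B4galt4, the most abundant member, prefers sulfated N-acetylglucosamine and acts in keratan sulfate synthesis. It was at 22.8, 32.8, 27.6 and 43.9 CPM in the libraries labelled KO and at 26.5, 37.4 and 45.3 CPM in WT. The groups overlapped over most of their range, with the lowest value in KO replicate 1 and the highest in WT replicate 3. The log2 difference was -0.20 (SE 0.26, 95% interval -0.77 to 0.38, edgeR adjusted p = 0.752). Over the alternatives it ran from -0.40 to -0.02, and it was below 0 in all 17.

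B4galt5 and B4galt6, which make lactosylceramide from glucosylceramide, were low, and neither passed the test. B4galt5 was at 5.78, 5.88, 4.57 and 6.59 CPM in the libraries labelled KO and 5.64, 4.97 and 3.49 CPM in WT, a log2 difference of 0.28 (SE 0.31, 95% interval -0.41 to 0.96, edgeR adjusted p = 0.705). The WT values reached from below all those labelled KO into their middle. B4galt6 was at 14.1, 9.24, 10.4 and 5.54 CPM against 9.72, 18.6 and 15.2 CPM, a log2 difference of -0.56 (SE 0.34, 95% interval -1.31 to 0.18, edgeR adjusted p = 0.478). WT replicate 1 lay among the libraries labelled KO. The larger value of B4galt6 in CPM goes with its longer transcript, 5808 bases against 4210 for B4galt5, and their means in TPM were 2.32 for B4galt5 and 2.11 for B4galt6.

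B4galt7, the first galactosyltransferase of the proteoglycan linker, had the largest difference of the tested members. It was at 8.20, 11.4, 10.0 and 18.1 CPM in the libraries labelled KO, 11.9 ± 4.31 CPM (SD, n = 4). Under the WT label it was at 6.62, 5.86 and 8.67 CPM, 7.05 ± 1.45 CPM (SD, n = 3). The groups overlapped only through KO replicate 1, which lay below WT replicate 3. The log2 difference was 0.76 (SE 0.32, 95% interval 0.05 to 1.47), with an unadjusted edgeR p of 0.0379 and an adjusted p of 0.308, so it did not pass the test over all genes. Without KO replicate 4 the log2 difference was 0.49 (adjusted p = 0.493), and over the 17 alternatives it ran from 0.49 to 0.92 with adjusted p from 0.120 to 0.654.

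**Figure D2:**
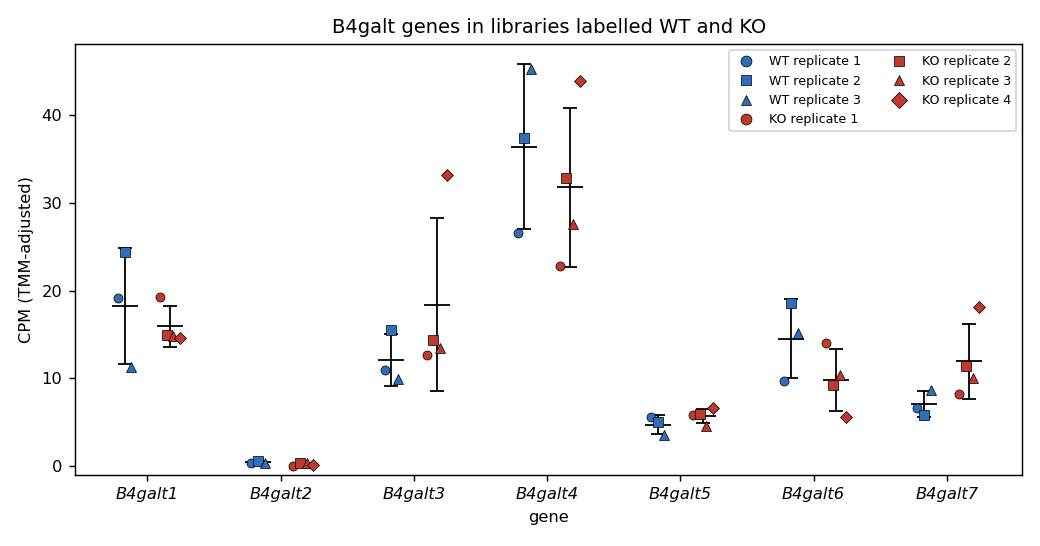
CPM of each paralogue, with 1 point per library, and group mean with SD. The groups overlap for all 7 genes, and KO replicate 4 is the highest library for B4galt3 at 33.2 CPM and for B4galt7 at 18.1 CPM.

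Of the 6 tested members, 0 passed an edgeR adjusted p below 0.05, where 2.26% of the 14695 genes tested did, 0.599% being higher under the KO label and 1.66% lower. At an unadjusted p below 0.05 there was 1 member, B4galt7, against 14.6% of all genes. DESeq2 and limma voom called 0 members. All 7 members overlapped between the groups in CPM, while the groups of 15.7% of tested genes did not. The median log2 difference of the 6 members was 0.04, with 3 above and 3 below 0, and that of all tested genes was 0.03. The precision limits what these counts can show. On simulated counts for this comparison the test recovered 37% of 100 genes changed 2-fold and 82% of 100 changed 4-fold. The upper ends of the 95% intervals were 0.38 for B4galt4, 0.96 for B4galt5, 0.18 for B4galt6, 1.41 for B4galt3 and 1.47 for B4galt7 on the log2 scale. A rise of B4galt4 or B4galt6 by 1 log2 unit thus lies outside these intervals, and one of B4galt3 or B4galt7 does not. For B4galt5 the bound is close to 1, and with the length offset its log2 difference was 0.51 with a wider error (SE 0.50).

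**Figure D3:**
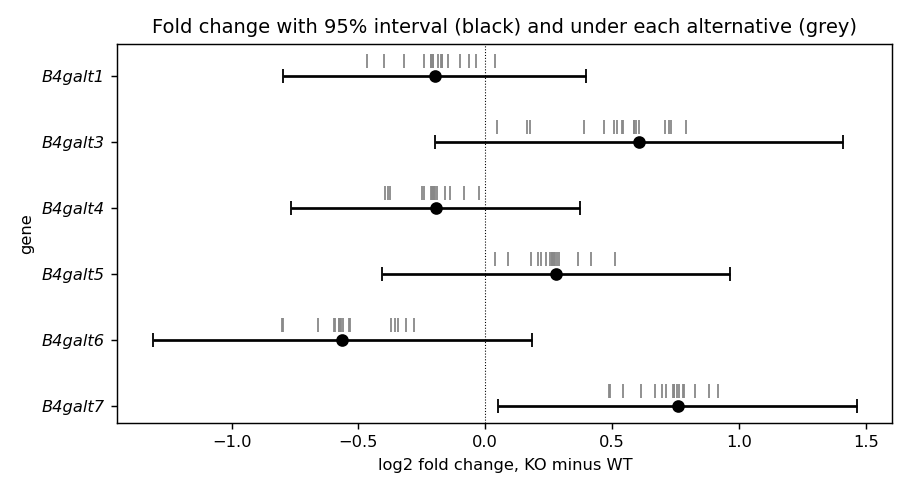
Log2 difference of each tested paralogue, KO minus WT by label, with the 95% interval of the edgeR fit and small marks for the alternatives. The intervals of 5 members include 0, that of B4galt7 runs from 0.05 to 1.47, and the alternatives of B4galt1 lie on both sides of 0.

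The RNA of the family as a whole was summed in TPM as a description, with no test. The sum was 34.8, 41.3, 38.6 and 81.2 TPM under the KO label and 31.6, 38.0 and 41.5 TPM under the WT label. KO replicate 4 stood alone above the rest, and the other 3 libraries labelled KO lay within the WT range. Without B4galt1 the sum was 29.6, 37.2, 34.1 and 73.3 TPM against 26.6, 32.7 and 38.2 TPM. Counted as CPM per kilobase of the longest transcript, which does not use the estimated transcript shares, the sum was 31.9 ± 8.04 (SD, n = 4) under the KO label and 31.04 ± 4.59 (SD, n = 3) under the WT label.

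The make-up of that sum is given as shares. B4galt1 made up 14.9%, 9.83%, 11.7% and 9.76% of it in the libraries labelled KO and 15.8%, 13.9% and 7.93% in WT. B4galt4 made up 35.8% ± 2.84 (SD, n = 4) against 45.3% ± 7.95 (SD, n = 3), and B4galt3 27.2% ± 4.03 against 20.5% ± 5.14. In TPM both overlapped between the groups, though their means lay further apart than either SD. B4galt7 did not overlap, at 13.1% to 16.1% under the KO label and 6.91% to 11.7% under the WT label. On CPM per kilobase its shares were 14.3% to 18.9% against 7.77% to 11.96%, and over protein-coding transcripts alone 14.5% to 17.1% against 7.81% to 13.6%. Which other members overlapped depended on the scale. B4galt3 did not overlap on CPM per kilobase, at 14.4% to 23.3% against 9.25% to 13.9%, and B4galt4 did not overlap over protein-coding transcripts, at 31.5% to 36.4% against 37.5% to 49.4%. Shares of a sum depend on each other, and no test was made of them. Each member was read on each scale, and no background was counted for such shares, so their lack of overlap is no further result. In CPM and TPM of the genes themselves, the groups overlapped for all 7 members.

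**Figure D4:**
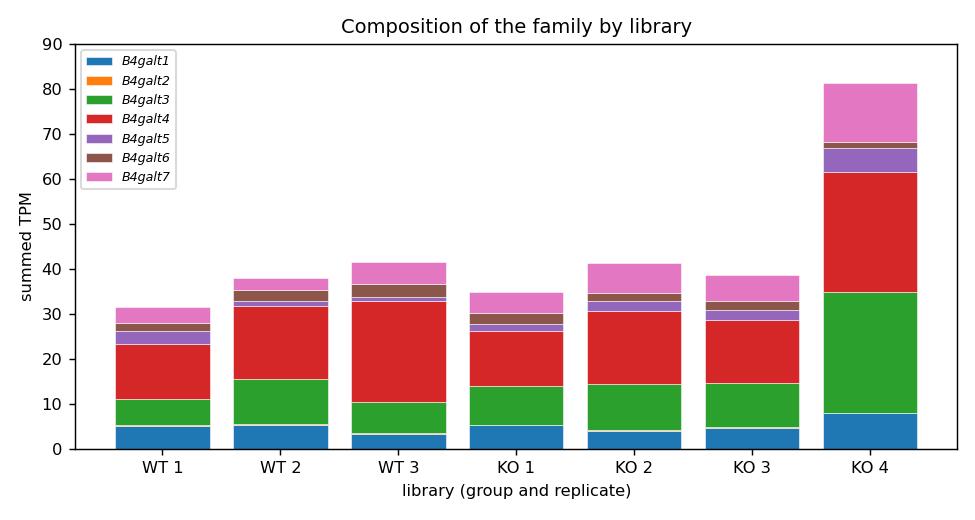
Summed TPM of the family in each library, stacked by paralogue. The bars of 6 libraries end between 31.6 and 41.5 TPM, KO replicate 4 ends at 81.2 TPM, and B4galt4 and B4galt3 fill most of each bar.

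The reads of the other members were divided among their transcripts unevenly from library to library, and the division itself was not tested against the labels. Of 13 family transcripts tested, 0 passed an edgeR adjusted p below 0.05, where 0.425% of 40219 transcripts did, and 0 had an unadjusted p below 0.05. DESeq2 called 0 of them. Fitted without the filter on low counts, 2 low retained-intron transcripts had an unadjusted p below 0.05. These were ENSMUST00000142654 of B4galt7, at 2.36, 20.2, 2.55 and 44.9 estimated reads under the KO label and 0, 0 and 1.16 under the WT label (edgeR adjusted p = 0.516), and ENSMUST00000132890 of B4galt3, at 9.50, 12.1, 7.72 and 58.0 against 2.88, 0 and 0 (edgeR adjusted p = 0.535). Both were picked by that p, and their reads are low and not scaled for depth, so their lack of overlap is no further result. The share of the 74038 transcripts in that fit that reached such a p was not counted. The B4galt4 transcript ENSMUST00000114712, which encodes the whole enzyme, held 54.4% to 70.5% of B4galt4 TPM, but the short coding transcript ENSMUST00000114711 was assigned reads only in KO replicate 1 and WT replicate 2. The B4galt3 transcript ENSMUST00000126699, with a shorter coding sequence, took 65.4% of B4galt3 TPM in KO replicate 1 and 0 in KO replicate 4, WT replicate 1 and WT replicate 3. The B4galt7 transcript ENSMUST00000064701 held 69.4% to 88.1% of B4galt7 TPM in 6 libraries and 0 in WT replicate 2, where ENSMUST00000100764 held all of it. The B4galt5 transcript ENSMUST00000149698, of 425 bases, had 0 to 20.2 reads and yet took 55.4% of B4galt5 TPM in WT replicate 1. TPM of B4galt5 therefore rested on few reads, and its CPM is the steadier value. Annotated retained-intron transcripts held 10.1% to 15.2% of B4galt3 reads under the KO label and 25.6%, 8.29% and 3.60% in WT replicates 1 to 3. Over all genes such transcripts held 4.49% to 5.24% of reads under the KO label and 3.70% to 4.05% under the WT label, and the part of this difference in the values of B4galt3 was not tested.

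The genes that supply, extend or remove the same galactose were taken from 9 lists, 94 distinct genes in all, of which 77 were tested. None of the 77 passed the edgeR test in either direction, where 2.26% of all tested genes did. At an unadjusted p below 0.05 there were 10 of the 77, of which 5 were higher and 5 lower, against 14.6% of all tested genes. DESeq2 called 3 of the 77, and over all 14695 genes 352 higher and 514 lower. Limma voom called 2 of the 77, and over all genes 269 higher and 439 lower. The groups did not overlap for 7 of the 77, against 15.7% of all tested genes. Their median log2 difference was -0.07, with 33 above and 44 below 0. The lists share genes, so their counts overlap.

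For the supply of UDP-galactose and manganese to the Golgi, all 9 genes were tested, none passed the test and the median was -0.07. Slc35a2, the UDP-galactose transporter, had a log2 difference of 0.11 (SE 0.30). The smallest p values belonged to Tmem165, needed for Golgi manganese, at -0.21 (SE 0.15, edgeR adjusted p = 0.542), and to Ugp2, which makes UDP-glucose, at -0.19 (SE 0.16, adjusted p = 0.610). No gene of this list had an unadjusted p below 0.05.

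The enzymes that build the N-glycan antennae on which B4galt1 acts had 12 of 14 genes tested, with a median of -0.06. Man1a, a Golgi mannosidase that trims N-glycans before antennae are started, was at 61.6, 56.0, 59.9 and 39.1 CPM in the libraries labelled KO and at 77.2, 79.9 and 81.6 CPM in WT. The groups did not overlap, but its log2 difference of -0.56 (SE 0.18) had an edgeR adjusted p of 0.172. Man1c1, a related mannosidase, differed by -0.63 (SE 0.39, adjusted p = 0.494). Of the enzymes that extend N-acetyllactosamine or build core 2 branches, 9 of 12 were tested, with a median of -0.05. B3gnt2, which alternates with the galactosyltransferases in building these chains, differed by 0.53 (SE 0.22, edgeR adjusted p = 0.309) and B3gnt7 by 1.24 (SE 0.55, adjusted p = 0.330).

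A further list covered the capping of galactose-bearing chains with sialic acid, fucose or a further galactose, and the supply of sialic acid. Of its 16 genes 12 were tested, with a median of -0.12. Fut7, the fucosyltransferase that completes sialyl Lewis x, was at 12.5, 20.9, 14.2 and 39.9 CPM in the libraries labelled KO and at 8.05, 3.51 and 9.23 CPM in WT. Its groups did not overlap, with a log2 difference of 1.66 (SE 0.46, 95% interval 0.64 to 2.67, edgeR adjusted p = 0.1096), and DESeq2 called it at 1.64 (adjusted p = 0.00539). St3gal1, a sialyltransferase of O-glycans, differed by -0.59 (SE 0.20, edgeR adjusted p = 0.194), also with no overlap.

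Around B4galt5 and B4galt6, 7 of 10 glycosphingolipid genes were tested, with a median of -0.15. Ugcg, which makes their substrate glucosylceramide, differed by 0.27 (SE 0.22, edgeR adjusted p = 0.594). B3galnt1, the globoside synthase, was low, at 0.546, 1.07, 2.08 and 0.810 CPM in the libraries labelled KO and 4.35, 2.01 and 4.96 CPM in WT. The groups overlapped between KO replicate 3 and WT replicate 2, and the log2 difference was -1.74 (SE 0.54, edgeR adjusted p = 0.154). DESeq2 called it at -1.76 (adjusted p = 0.0420) and limma voom at -1.72 (adjusted p = 0.0440). B4galnt1, which starts complex gangliosides, differed by 0.47 (SE 0.30, edgeR adjusted p = 0.498).

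Around B4galt7, 11 of 12 genes of the proteoglycan linker and its chain starts were tested, with a median of 0.09. Its partners in the linker did not pass the test: Xylt1 and Xylt2, which attach the xylose, differed by -0.09 (SE 0.32) and -0.24 (SE 0.43), B3galt6, which adds the next galactose, by 0.09 (SE 0.25), and B3gat3, which adds the glucuronic acid, by 0.26 (SE 0.24). Csgalnact2, which starts chondroitin chains, was at 64.9, 79.4, 74.7 and 109.6 CPM in the libraries labelled KO and at 52.4, 56.6 and 62.6 CPM in WT, without overlap, a log2 difference of 0.52 (SE 0.20, edgeR adjusted p = 0.246). Extl3, which acts at the start of heparan sulfate chains, differed by -0.54 (SE 0.31, adjusted p = 0.460).

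Other galactosyltransferases had 9 of 12 genes tested, with a median of 0.09. C1galt1, which adds the galactose that makes the core of mucin-type O-glycans, was at 79.7, 38.6, 53.8 and 38.4 CPM in the libraries labelled KO and at 87.9, 144.7 and 86.1 CPM in WT. The groups did not overlap, and the log2 difference was -1.01 (SE 0.28, 95% interval -1.64 to -0.39, edgeR adjusted p = 0.113). DESeq2 gave -1.03 (adjusted p = 0.0148), limma voom -0.88 (adjusted p = 0.0419), and edgeR without KO replicate 1 gave -1.30 (adjusted p = 0.0252). Ggta1, the alpha-1,3-galactosyltransferase, differed by 0.39 (SE 0.22, adjusted p = 0.460). Of the relatives that transfer N-acetylgalactosamine, 6 of 8 were tested, with a median of 0.08, and the chondroitin-building genes Chsy1 and Chpf2 differed by -0.52 (SE 0.30, adjusted p = 0.465) and 0.65 (SE 0.40, adjusted p = 0.494). All 8 genes of lysosomal removal of galactose were tested, with a median of 0.10, and Glb1l, related to lysosomal beta-galactosidase, differed by 0.68 (SE 0.24, adjusted p = 0.225) and Glb1 itself by 0.50 (SE 0.27, adjusted p = 0.426).

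**Figure D5:**
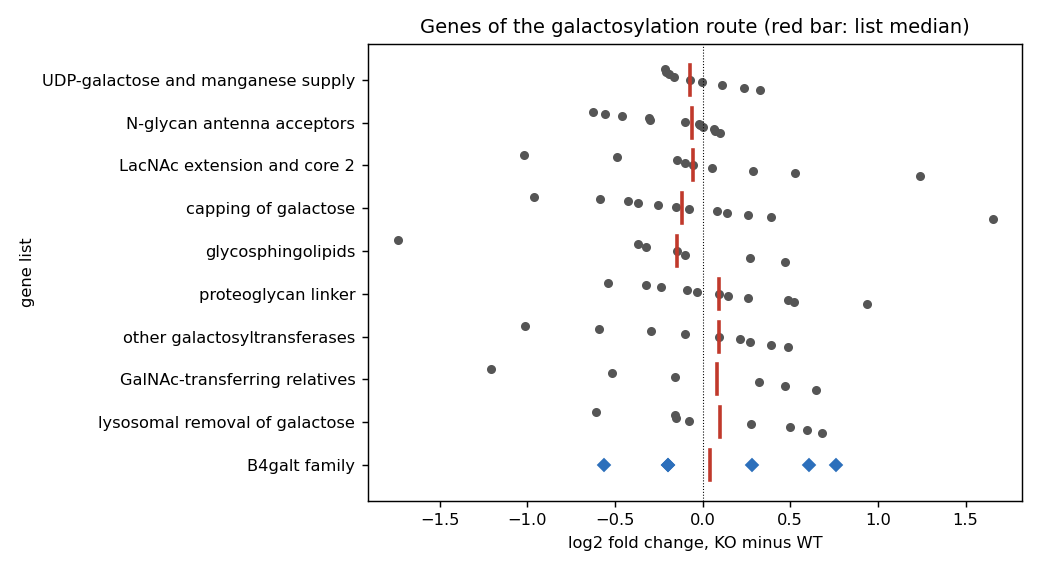
Log2 difference, KO minus WT by label, of every tested gene in the family and in the 9 lists, 1 point per gene and a bar at the list median. The medians lie between -0.15 and 0.10, and Fut7 at 1.66 and B3galnt1 at -1.74 are the points farthest from 0 on either side.

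The chromosomal neighbours of each paralogue were also read. Within 1 Mb of B4galt1, 31 genes were tested, of which 3 were lower under the KO label and 0 higher, with 6 at an unadjusted p below 0.05. Over all genes tested 1.66% were lower, 0.599% higher and 14.6% at that unadjusted p. These were Ccl27a at -3.80 (SE 0.58), Il11ra1 at -1.03 (SE 0.21) and Gm12407 at -4.82 (SE 0.94), with edgeR adjusted p of 0.00576, 0.0279 and 0.0246. Gm12407 is annotated as an unprocessed pseudogene, and sequence that these 3 share with other genes was not examined. Within 1 Mb of B4galt2, B4galt5 and B4galt6 there were 0 calls among 32, 23 and 7 tested genes, with 5, 2 and 0 at an unadjusted p below 0.05. Around B4galt3, 1 of 46 was higher, Cd48, and 10 had an unadjusted p below 0.05. B4galt4 had 1 lower of 14, Fstl1 at -1.22, with 1 at the unadjusted p, and B4galt7 had 2 lower of 30, Pdlim7 at -1.30 and Tspan17 at -1.79, with 4 at the unadjusted p.

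Genes whose level ran most like that of each member over the 7 libraries were named by Pearson's r of log2 CPM among 12308 protein-coding genes, as a description, since the highest of so many is large by choice and the libraries share depth and label. For B4galt1 they were Brpf1 at 0.98, Ppm1f at 0.98, Mtrf1l at 0.97, Ap1s3 at 0.97 and Tor1b at 0.96. The nearest gene was Esyt1 for B4galt3 at 0.98, Rai14 for B4galt4 at 0.97, Zfp747 for B4galt5 at 0.96, Slc41a1 for B4galt6 at 0.99 and Tbc1d15 for B4galt7 at 0.99. Within the family, B4galt7 ran with B4galt3, at 0.74, and against B4galt6, at -0.84, and against B4galt1, at -0.59. KO replicate 4, which had the highest B4galt3 and B4galt7 and the lowest B4galt6, is 1 of the 7 points behind each value.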

How the data were processed

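RNA-seq libraries of LT-HSCs, 4 labelled KO and 3 labelled WT, were made with a kit without strand marking, per the labels' protocols. The tools named are cutadapt and Salmon 0.11.2, with mm10, per the submitters' processing notes. The transcript set was not given in the sources used here. Used were the estimated counts per transcript and the TPM values that the authors deposited, and, for 1 alternative, the deposited effective lengths. Transcripts were joined to GENCODE M21 of GRCm38 (111787 of 112092 matched; the rest held 0.0836% to 0.123% of reads). Estimated counts were summed per gene and rounded. Totals ran from 23508985 to 34941390 reads.

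Groups were compared with edgeR 4.0.16 in R 4.3.3 (quasi-likelihood test, TMM, filterByExpr, Benjamini-Hochberg over all 14695 genes tested, threshold 0.05). Adjusted p-values are from this test unless another tool is named. The smallest exact permutation p for 4 against 3 is 0.0571, so none was used. The code was tested on simulated data: 14380 of 14695 genes were tested and 6 of 14180 unchanged genes were called. Alternatives were upper quartile and RLE scaling, no and a stricter filter (1 CPM in 3 libraries, 50 reads), DESeq2 1.42.0, limma 3.58.1 voom, a length offset, the replicate number as a block, a sex covariate and each library left out. Keeping only the 5 libraries with Y-linked expression was added after seeing the data. Members and gene lists were chosen with earlier results of these data known.

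Named genes are the 7 paralogues, the called members of each pathway list or otherwise the 2 of smallest p, and the genes most like each paralogue (5 for B4galt1, 1 for the others, mean of at least 1 CPM, prior count 2). Cd48, Slamf1, Vwf, Hba-a1, Lyz2, Nkg7, Cd3e, Ly6g, the neighbours called within 1 Mb and the pathway partners of the paralogues were named after their values were seen.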

Additional observations from a re-analysis of the deposited data

Results flagged for a closer look

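In the group of 4 libraries labelled KO, 27 quantities of the family were examined for a library standing apart by Dixon's rule at 95%, and 6 met it, where chance flags about 1 in 20 groups. The quantities depend on each other, and 5 of the 6 concern KO replicate 4. B4galt3 was at 33.2 CPM there against 12.6 to 14.3 in the other 3, at 27.0 TPM against 8.88 to 10.1, and at 33.2% of the family's TPM against 24.4% to 25.6%. The family sum was 81.2 TPM against 34.8 to 41.3. The short B4galt1 transcript was at 4.32 TPM against 0 to 0.430. The sixth was B4galt1 in KO replicate 1, at 19.3 CPM against 14.6 to 14.9 in the other 3, and WT replicate 1 was at 19.2 CPM. KO replicate 4 has the most reads and lacks the Y-linked expression of the other 3, and the part of either in these values was not tested.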

How the results depend on the processing

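Over 17 alternatives the 6 tested members gave 102 values, of which 101 kept their direction and their side of the threshold. The exception was B4galt1, at 0.037 without WT replicate 2. Log2 differences ran from -0.47 to 0.037 for B4galt1, 0.05 to 0.79 for B4galt3, -0.40 to -0.02 for B4galt4, 0.04 to 0.51 for B4galt5, -0.80 to -0.28 for B4galt6 and 0.49 to 0.92 for B4galt7. The longest B4galt5 transcript, at 0.15 with all libraries, ran from -0.015 (without WT replicate 3) to 0.25 with a library left out. The number of genes called moved more. Those higher in the libraries labelled KO, 88, became 352 with DESeq2, 269 with limma voom, 213 with the length offset, 218 with the sex covariate and 30 to 130 with a library left out. Those lower, 244, became 514, 439, 251, 396 and 157 to 279. The higher share of calls was 26.5%, against 40.6% with DESeq2, 38.0% with limma voom and 45.9% with the length offset. Of the pathway genes, 1 was called higher with DESeq2 (Fut7), 1 with the length offset (Man1a2, at 1.33) and 1 with the sex covariate (Fut7), and 2 were called lower with DESeq2 and 2 with limma voom (C1galt1 and B3galnt1) and 1 with the sex covariate (C1galt1). With a library left out 0 to 1 was called lower, C1galt1 without KO replicate 1, and 0 higher. Transcripts called, 171, became 2179 with DESeq2 and 9 to 98 with a library left out. The cause was not tested.

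The replicate numbers did not pair the libraries: deviations of same-numbered libraries correlated at -0.05, -0.12 and -0.04. With the replicate block 58 genes were higher and 182 lower, 0 transcripts were called, and the members were at -0.10 (B4galt1), 0.18 (B4galt3), -0.38 (B4galt4), 0.22 (B4galt5), -0.34 (B4galt6) and 0.49 (B4galt7). KO replicate 4 has no WT library of its number, so it adds nothing to the difference in the block fit. Without KO replicate 4 and with no block, the members were at -0.15, 0.16, -0.39, 0.21, -0.35 and 0.49 in the same order. Depth limits B4galt2 most, with 53 reads in all.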
